A study of Mus musculus with 19 samples.

Results

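Hox genes encode homeodomain transcription factors that give cells along the head-to-tail axis their positional identity. The 39 genes described here are the protein-coding genes with the symbols Hoxa, Hoxb, Hoxc or Hoxd and a number, and all 39 were found among the 55487 genes of each table. Expression was measured by RNA sequencing in 19 mouse libraries. Spinal cords, snap-frozen, came from miR-146a KO animals (9 libraries) and from wild-type (WT) animals (4 libraries), with no strain, age, sex or level of the cord in the labels. Motor neurons were made from the RW.4 mouse embryonic stem cell line with retinoic acid and the Smoothened agonist SAG. By lipofection they were given 10 nM of a miR-146a LNA (3 libraries) or of a control LNA (3 libraries) for 72 h. An LNA is a locked nucleic acid oligonucleotide that blocks its microRNA. The labels do not say whether the libraries within a group are from different animals or dishes. The p-values therefore reflect spread among libraries that could be technical alone.

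In mammals the Hox genes lie in 4 clusters, and genes at the same place in different clusters form 1 of 13 paralog groups. Low-numbered groups are known to be switched on first and furthest forward, and high-numbered groups later and further back, an order called collinearity. In the spinal cord, groups 4 to 8 are known for cervical and brachial identity, Hoxc9 for thoracic motor columns, and group 10 for the lumbar cord, with groups 11 to 13 behind it. Retinoic acid is known to induce the genes at the low-numbered end, and Polycomb proteins to keep the others silent. On GRCm38, cluster A has 11 genes on chromosome 6 (52155590 to 52260880), all on the minus strand. Cluster B has 10 on chromosome 11 (96194316 to 96368256), cluster C has 9 on chromosome 15 (102921103 to 103036852) and cluster D has 9 on chromosome 2 (74668310 to 74765142), all on the plus strand.

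The microRNA removed or blocked in the study and microRNAs encoded inside the clusters are shown first. Their seeds (bases 2 to 8, in capitals) gave the letters searched for in Hox transcripts. The sequences are from RefSeq (GRCm38.p6). The gene of miR-146a is also on chromosome 11, outside cluster B (chr11:43374435-43374456, minus strand). The miR-10 and miR-196 genes lie within clusters A to D. miR-10a and miR-10b share 1 seed, and so do miR-196a and miR-196b.
miR-146a-5p: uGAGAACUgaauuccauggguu
miR-10a-5p: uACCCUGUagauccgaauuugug
miR-10b-5p: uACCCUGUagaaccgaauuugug
miR-196a-5p: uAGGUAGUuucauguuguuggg
miR-196b-5p: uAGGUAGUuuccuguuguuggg

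The complement of the miR-146a seed, AGTTCTC, was searched on the transcript strand of the longest annotated 3′ UTR of each protein-coding gene. It occurred in 4 of 39 Hox genes (10.3%) and in 11.1% of all 21037 genes with a 3′ UTR. These 4 were Hoxa5, Hoxa9, Hoxb1 and Hoxd10, shown here with the match in capitals. They are the members found with a full match to the seed of the lost or blocked microRNA. The Hoxa5 site is at chr6:52201781-52201803, the Hoxa9 site at chr6:52223549-52223571, the Hoxb1 site at chr11:96367164-96367186 and the Hoxd10 site at chr2:74694760-74694782.
Hoxa5: aaactttctattgtaAGTTCTCt
Hoxa9: aaagaaaagagagatAGTTCTCc
Hoxb1: ttccaacgcttgaccAGTTCTCt
Hoxd10: ttttcctaacataaaAGTTCTCt

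The match to the miR-196 seed, ACTACCT, occurred in 9 of 39 Hox genes (23.1%), against 6.10% of all genes. Among them were Hoxa4, Hoxa5, Hoxa7, Hoxa9, Hoxb1, Hoxb6, Hoxb7 and Hoxc8. Hoxc8, shown because its level differed between cords, holds 2 such matches (chr15:102992975-102992997 and chr15:102993732-102993754). Its SD over mean across the WT cords was 0.537. Hoxa4, Hoxa5, Hoxa7, Hoxa9, Hoxb6 and Hoxb7, also with matches, had 0.0267 to 0.300, and Hoxb1, at very low levels, had 0.995. Hoxa7 holds more matches than Hoxc8. Whether the matches bear on these levels was not tested. The match to the miR-10 seed, ACAGGGT, occurred in 4 Hox genes (Hoxa3, Hoxb3 and Hoxd1 among them) and in 12.5% of all genes. A match is a stretch of letters and not a shown site of binding. Only exact matches were searched, so a site with an imperfect seed match would be missed, and a member without a match is not shown to lack sites. Mature microRNAs were not measured in these libraries.
Hoxc8, first match: acactcacaactctaACTACCTg
Hoxc8, second match: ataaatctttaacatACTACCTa

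Several libraries stand apart. The library labelled knockout replicate 9 goes against its label at Pttg1, a neighbour of the miR-146a gene. It had 23.2 TPM (transcript abundance scaled for gene length and depth) there, against 1.66 to 2.86 in knockout replicates 1 to 8 and 23.9 to 25.7 in the WT cords. The same library had 1746 TPM of Sod1, against 154 to 209 in the other knockout cords. Knockout replicate 7 held 8264.5 TPM summed over 7 skeletal muscle markers, against 8.11 to 24.5 in the other 12 cords. Each cord library held 28163289 to 39577247 counts and each culture library 40647549 to 65471742. The miR-146a precursor had 1 count in all, so it checks neither genotype nor LNA. Glial markers were present in every cord (summed astrocyte markers 1595 to 5902 TPM), and the cultures had the motor neuron factor Mnx1 at 66.6 to 75.5 TPM. In the control cultures the astrocyte marker Aqp4 was at 0.

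All 13 paralog groups and 4 clusters were read in the WT cords, and 33 of 39 Hox genes averaged at least 1 TPM. Summed over the 39 genes, Hox transcripts amounted to 1109 ± 18.0 TPM (SD, n = 4). The knockout cords had 1019 ± 135 TPM (SD, n = 9), and 34 members averaged at least 1 TPM. The control cultures had 462 ± 45.3 TPM (SD, n = 3) and the miR-146a LNA cultures 456 ± 21.05 TPM (SD, n = 3), with 19 members at 1 TPM or more in each. No Hox gene of paralog groups 10 to 13 reached 1 TPM on average in either culture group. The heatmap of levels shows this edge.

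**Figure D1:**
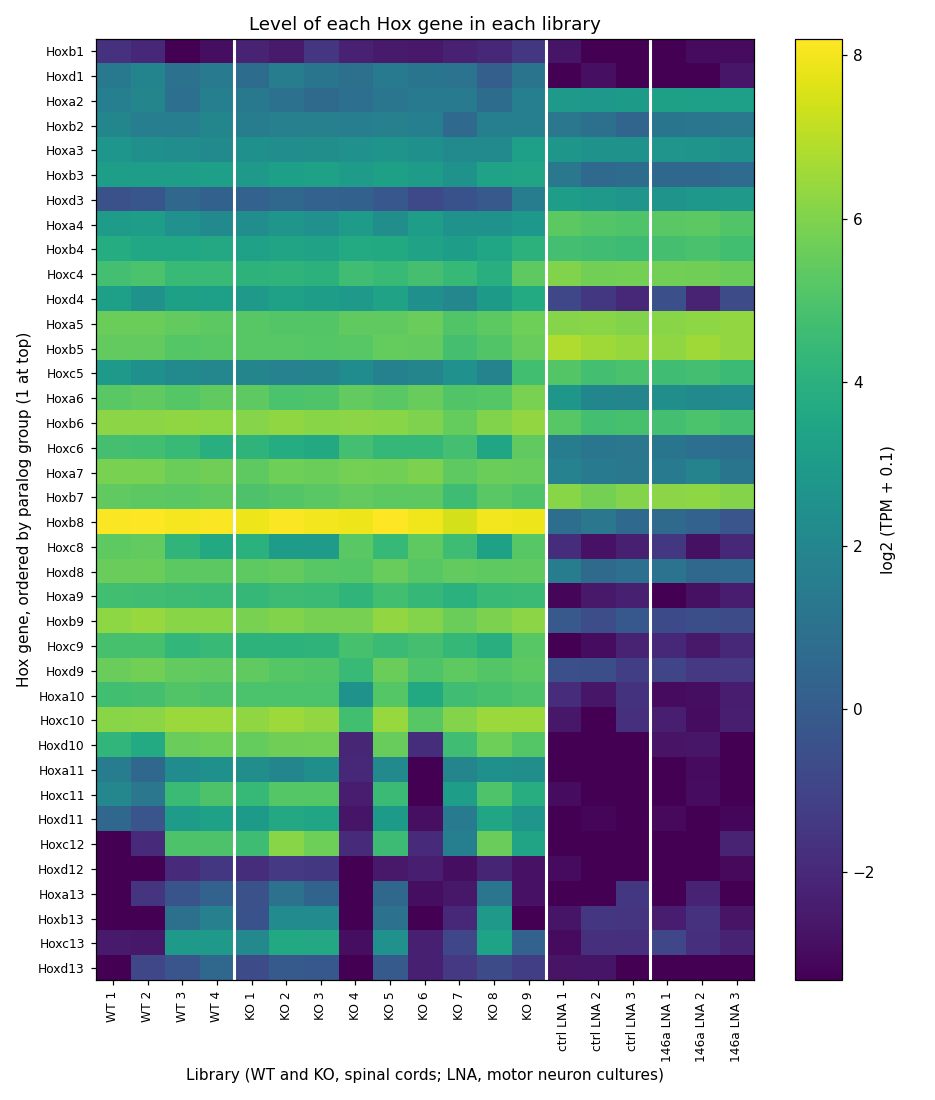
Level of 38 Hox genes (rows, paralog group 1 at the top to 13 at the bottom) in the 19 libraries (columns), as log2 of TPM + 0.1. White lines separate WT cords, knockout cords, control LNA cultures and miR-146a LNA cultures. Hoxb8 is the brightest row in cords, while the lowest rows are dark or dim in all 6 cultures and in cords of both genotypes, among them WT cords 1 and 2 and knockout cords 4 and 6.

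The paralog groups that carried the Hox transcripts differed between the materials. In WT cords, groups 8 to 13 gave 64.1% ± 2.73 (SD, n = 4) of summed Hox TPM and groups 4 to 7 gave 33.7% ± 2.58. In control cultures, groups 8 to 13 gave 1.30% ± 0.0353 (SD, n = 3) and groups 4 to 7 gave 90.7% ± 0.437. Group 8 was the largest in cords, with 31.7% ± 2.60, and group 5 the largest in cultures, with 42.4% ± 1.37. Groups 1 to 3, known for the hindbrain, gave 2.24% ± 0.174 in cords and 7.98% ± 0.440 in cultures. The ranges of these shares in the 2 materials did not overlap.

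**Figure D2:**
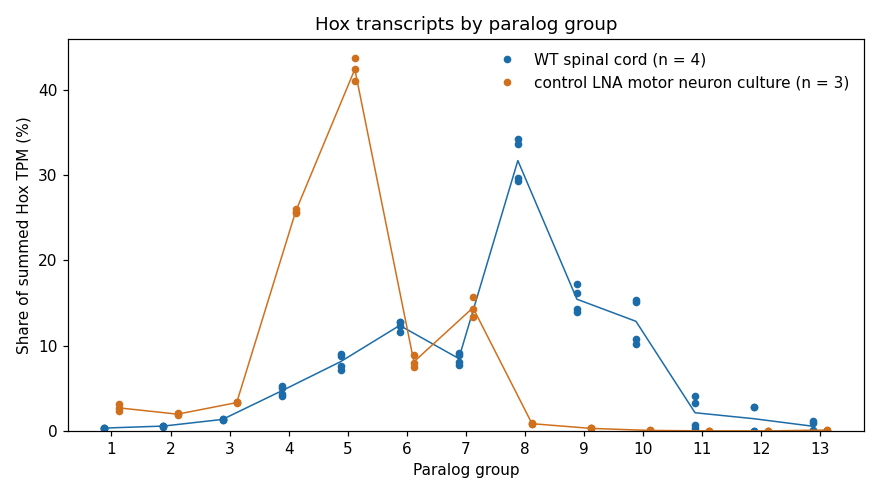
Share of summed Hox TPM (%) taken by each paralog group in each WT cord library (blue, n = 4) and each control LNA culture (orange, n = 3), with lines through the means. Cultures peak at group 5 (42.4%), and cords at group 8 (31.7%).

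Clusters B and C kept similar shares in both materials, and clusters A and D did not. Cluster B gave 48.3% ± 1.55 of Hox TPM in WT cords and 48.4% ± 1.19 in control cultures. Cluster A gave 19.2% ± 1.01 in cords and 29.8% ± 1.65 in cultures. Cluster C gave 19.97% ± 1.27 and 19.6% ± 0.797, and cluster D gave 12.6% ± 1.26 and 2.22% ± 0.194.

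Hoxb8, a gene known for its part in brachial and thoracic patterning, was the most abundant Hox gene of WT cords. It stood at 280 TPM in replicate 1, 288 in replicate 2, 265 in replicate 3 and 284 in replicate 4 (mean 279 ± 10.0). Hoxc10 followed with 80.4 ± 9.32 TPM, and no library of it overlapped any of Hoxb8. Hoxc10, Hoxb9 (75.5 ± 6.14) and Hoxb6 (75.3 ± 2.01) overlapped with their neighbours in this order. Hoxa7 came next with 54.4 ± 5.31 TPM.

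In the other paralog groups of WT cords the most abundant members were Hoxd1 (2.63 ± 0.691 TPM), Hoxb2 (3.40 ± 0.517), Hoxb3 (8.69 ± 0.219), Hoxc4 (24.9 ± 4.36) and Hoxa5 (45.0 ± 4.72). Hoxc11 averaged 15.2 ± 14.4, Hoxc12 averaged 15.8 ± 18.2 and Hoxc13 averaged 3.66 ± 4.14. The SD of these last 3 was about the size of the mean. The lowest of all were Hoxb1 (0.0994 ± 0.0990 TPM), a gene known for rhombomere 4 of the hindbrain, and Hoxd12 (0.105 ± 0.129).

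In control cultures Hoxb5 led, with 115 TPM in replicate 1, 95.5 in replicate 2 and 83.3 in replicate 3 (mean 98.0 ± 16.1). Hoxb5 and Hoxa5 are known to act at the level of the neck and shoulder. Hoxa5 had 68.0 ± 2.91 TPM, Hoxb7 had 64.0 ± 7.18, and Hoxc4 had 57.9 ± 5.59, and each of the last 2 overlapped the gene ranked above it. Hoxa4 (35.6 ± 3.75), Hoxb6 (30.5 ± 5.03), Hoxc5 (30.2 ± 4.18) and Hoxb4 (25.4 ± 1.84) followed, each overlapping its neighbour.

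Of the hindbrain groups, Hoxd3 had 7.41 ± 0.959 TPM in control cultures and Hoxa2 had 7.27 ± 0.338. Hoxd8 was the most abundant of group 8 with 2.03 ± 0.718, and Hoxb9 of group 9 with 0.734 ± 0.146. The place of the drop differed between clusters. In cluster A it lay between Hoxa5 (68.0 ± 2.91 TPM) and Hoxa6 (4.71 ± 1.68). In cluster C it lay between Hoxc5 (30.2 ± 4.18 TPM) and Hoxc6 (2.40 ± 0.331). Within cluster B the drop lay between the neighbours Hoxb7 and Hoxb8 (1.78 ± 0.418 TPM). Hoxb7 stood at 70.1, 56.1 and 65.8 TPM in the control cultures, where Hoxb8 stood at 1.67, 2.25 and 1.43. In the WT cords the order was the other way, with Hoxb7 at 39.7 ± 1.75 TPM and Hoxb8 at 279 TPM.

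The start regions of 3 members are shown from RefSeq (GRCm38.p6, 250 bases before to 50 after the start). They were chosen because Hoxa5 was high in both materials, Hoxb8 in cords alone, and Hoxd10 had no count in control cultures. The table held 24 such windows for 22 of the 39 genes. Capitals mark TATAAA or TTTATG, the latter a word bound by caudal-type (Cdx) factors, on either strand, where the minus strand reads TTTATA and CATAAA. These 2 words do not overlap in the windows shown. TATAAA was in windows of 4 of these 22 genes and in 13.6% of all 32851 windows, and TTTATG was in 5 of 22 and in 11.9%. Of the 3 windows only that of Hoxb8 held either. That no match was found says only that these letters are not in the window. The Hoxa5 window is chr6:52204538-52204837 (minus strand), the Hoxb8 window chr11:96281655-96281954 and the Hoxd10 window chr2:74691641-74691940 (both plus strand).
Hoxa5: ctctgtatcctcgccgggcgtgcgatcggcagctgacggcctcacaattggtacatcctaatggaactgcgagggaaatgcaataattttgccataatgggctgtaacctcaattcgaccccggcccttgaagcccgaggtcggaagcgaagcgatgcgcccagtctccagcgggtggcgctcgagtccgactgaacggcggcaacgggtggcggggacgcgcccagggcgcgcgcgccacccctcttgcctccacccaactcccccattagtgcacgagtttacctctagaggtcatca
Hoxb8: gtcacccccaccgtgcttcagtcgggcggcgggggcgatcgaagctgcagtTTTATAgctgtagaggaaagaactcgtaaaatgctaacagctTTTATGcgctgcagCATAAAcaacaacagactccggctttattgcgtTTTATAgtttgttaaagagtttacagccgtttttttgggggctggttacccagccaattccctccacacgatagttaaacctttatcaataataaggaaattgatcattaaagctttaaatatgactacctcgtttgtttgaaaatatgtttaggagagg
Hoxd10: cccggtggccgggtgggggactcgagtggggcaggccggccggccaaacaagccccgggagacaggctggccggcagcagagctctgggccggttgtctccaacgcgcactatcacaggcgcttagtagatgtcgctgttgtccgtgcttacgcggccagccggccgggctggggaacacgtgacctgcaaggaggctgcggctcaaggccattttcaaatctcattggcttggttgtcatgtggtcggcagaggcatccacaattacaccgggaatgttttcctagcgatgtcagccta

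Comparing WT cords with control cultures asks which Hox genes are set at another level in the cord tissue and in motor neurons made in culture. The material and the set of libraries cannot be told apart in it. In bulk RNA, fewer cells of a type and less RNA per cell cannot be told apart either. With edgeR's quasi-likelihood test and Benjamini-Hochberg adjustment over 21106 genes, 18015 genes (85.4%) passed an adjusted p of 0.05. Of all tested genes 44.9% were called higher in cords and 40.5% lower. Of 33 Hox genes tested, 22 were higher and 10 lower in cords, and Hoxa3 was not called (log2 −0.00, SE 0.12, adjusted p = 0.993). With so many genes called, this share of Hox genes is not a result about them. DESeq2 called the same numbers, 22 and 10. Hoxa13, Hoxb1, Hoxb13, Hoxc12, Hoxc13 and Hoxd12 did not pass the filter on low counts and were not tested. In WT replicates 3 and 4, Hoxb13 had 40 and 83 counts, Hoxc12 had 324 and 393, and Hoxc13 had 176 and 217. In WT replicates 1 and 2 these genes had 0 to 2 counts. The median over the tested Hox genes was 4.21 on the log2 scale, also with the 2 genes without counts in control cultures at their bound, against 0.14 over all genes. Of the 33 genes, 11 passed the filter on low counts only through the cords. They had 0 to 22 counts over the 3 control cultures and did not pass in cultures alone, so the filter fixed their direction, and neither the count nor the median is read as a result.

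Of paralog groups 8 to 13, only Hoxb8, Hoxb9, Hoxd8 and Hoxd9 passed the filter in cultures alone, and these 4 were higher in cords. The other 10 tested genes of these groups are among those whose direction the filter fixed. Hoxb8 had 231 ± 15.7 normalised CPM (library-scaled counts after TMM scaling) in WT cords and 1.26 ± 0.281 in control cultures, or log2 7.51 higher (SE 0.11, adjusted p = 1.81e-17 with edgeR). Its group 9 neighbour Hoxb9 had 61.0 ± 5.69 against 0.508 ± 0.106 (log2 6.90, SE 0.13, adjusted p = 8.43e-17 with edgeR). Hoxa9 (log2 8.83, SE 0.19), Hoxd9 (6.70, SE 0.17) and Hoxa10 (7.80, SE 0.21) were the next by p, Hoxa9 and Hoxa10 among the genes with few counts in cultures. Hox9 proteins are known to act in thoracic motor columns and Hox10 proteins in the lumbar motor column. For Hoxb8, Hoxb9 and Hoxd9 every WT cord stood above every control culture, as for 44.1% of all tested genes. The same was seen for Hoxa9 and Hoxa10, but the filter fixed their direction, so it is not read as a result.

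Hoxa11, Hoxc12 and Hoxd10 had no count in the 3 control cultures. With 3 counts for the whole group taken as the floor (0.0178 CPM), Hoxd10 was at least 1068-fold higher in WT cords, Hoxc12 at least 298-fold and Hoxa11 at least 150-fold (149.5). These bounds pool the counts of the 4 WT cords and do not hold for each library. Hoxc12 had 0 and 2 counts in WT replicates 1 and 2, and 324 and 393 in replicates 3 and 4. The libraries of WT cords differ for the other genes too, as given further on for Hoxd10.

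The 10 genes lower in cords all belonged to paralog groups 1 to 7. Hoxd3 had 0.617 to 1.28 TPM in WT cords and 6.39 to 8.30 in control cultures (log2 −2.75, SE 0.21, adjusted p = 3.28e-09 with edgeR). Hoxa4 followed with −2.21 (SE 0.18), Hoxc5 with −2.31 (SE 0.17) and Hoxb5 with −1.08 (SE 0.10). Hoxb4, Hoxc4, Hoxa2, Hoxb7 and Hoxa5 were lower too, at −1.10 to −0.37. Genes of groups 1 to 7 did not all go this way. All 3 tested genes of group 6 were higher in cords (log2 1.52 to 3.45). So were Hoxa7 (4.53, SE 0.13), Hoxb3 (2.50, SE 0.17) and Hoxb2 (1.15, SE 0.23). Hoxd1 and Hoxd4, of the cluster that cultures used least, were higher in cords by 7.42 (SE 0.64) and 5.02 (SE 0.29) on the log2 scale, Hoxd1 with 1 count in the control cultures and tested only through the cords. Hoxd4 stood at 5.93 to 9.16 TPM in WT cords and 0.148 to 0.455 in control cultures.

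**Figure D3:**
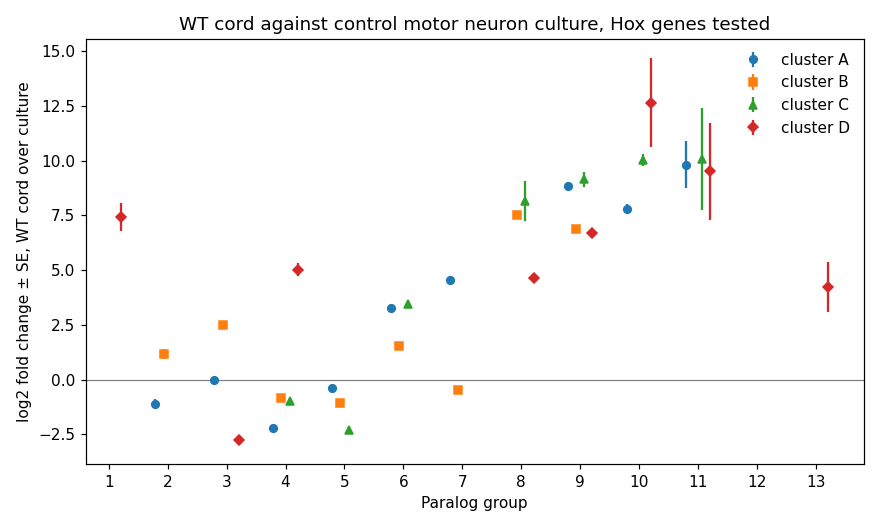
Fitted log2 fold change of WT cord (n = 4) over control LNA culture (n = 3) for 32 tested Hox genes, by paralog group, with cluster as marker and SE as bars. Values above 0 are higher in cord. The 14 genes of groups 8 to 13 lie above 0, but 10 of them passed the filter on low counts only through the cords, which fixed their sign. The fitted values of Hoxa11 and Hoxd10, without counts in the control cultures, depend on the fit and are no bounds.

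Genes that work with or upstream of Hox genes differed between the materials too, beside the 85.4% of all genes that did. Of 9 Hox cofactors, the Pbx and Meis family homeodomain proteins that bind DNA with Hox proteins, 2 were higher and 7 lower in WT cords. Meis1 had 28.4 ± 1.64 normalised CPM in cords and 335 ± 2.67 in cultures (log2 −3.56, SE 0.06). Of 17 Polycomb genes, 5 were higher and 10 lower in cords, among them Rnf2, the ubiquitin ligase of the complex (log2 −3.96, SE 0.06). Of 12 genes upstream of Hox, 9 were tested and 5 were higher and 3 lower. In cultures alone only 7 of these genes passed the filter on low counts. The filter thus fixed the direction of some, and the count is not read as a result. Gdf11, known for the trunk-to-tail step, was higher in cords (log2 1.498, SE 0.08), and Cyp26a1, which degrades retinoic acid, was lower (−3.42, SE 0.28). The caudal genes Cdx1 and Cdx4 had no count in any culture.

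Of 8 Trithorax genes, which keep genes active against Polycomb, 3 were higher and 4 lower in cords, with Ash2l at −2.72 (SE 0.06) on the log2 scale. Of 11 tested cluster RNAs and neighbours, 7 were higher and 3 lower. In cultures alone only 7 of this list passed the filter on low counts. Some of the 11 thus passed only through the cords, which fixed their direction. Neither the count nor the values of such genes are read as a result. Hoxaas2, antisense in cluster A, was lower (−2.34, SE 0.15), and Evx1, the homeobox gene next to Hoxa13, was higher (4.50, SE 0.44). All 5 tested genes of the rostral brain list were higher in cords, among them En1 (3.85, SE 0.28), which spinal interneurons also make. Of 12 genes of motor neuron columns 4 were higher and 8 lower, with Isl1 at −7.40 (SE 0.09).

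Within the cords, Hox levels of the caudal groups differed between libraries of both genotypes. Summed over groups 10 to 13, WT replicates 1 to 4 had 126, 119, 247 and 263 TPM. Knockout replicates 1 to 9 had 217, 319, 286, 33.0, 236, 49.9, 136, 284 and 195 TPM. Knockout replicates 4 and 6 were thus lowest, and WT replicates 1 and 2 were below every other library but these 2. The genotypes overlapped.

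Hoxd10, a lumbar motor neuron gene, had 19.01, 13.2, 46.8 and 50.6 TPM in WT replicates 1 to 4. In the knockout cords it ran from 0.137 to 52.9 TPM with a median of 43.8. The 2 lowest were replicate 4 (0.137) and replicate 6 (0.183). Hoxd9, the next gene of the cluster, had 22.2 and 32.8 TPM in these 2, so the ratio of Hoxd10 to Hoxd9 was 0.00616 and 0.00558 there, against 0.250 to 1.57 in the other 11 cords.

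Hoxc10 kept 26.4 and 36.3 TPM in knockout replicates 4 and 6, against 67.4 to 92.5 in the other knockout cords and 71.9, 72.9, 87.8 and 89.2 in WT replicates 1 to 4. Hoxc11, of the lumbosacral cord, had 3.99, 2.25, 23.3 and 31.3 TPM in WT replicates 1 to 4. It was at 0.0820 TPM in knockout replicate 4 and at 0 in replicate 6, while the other knockout cords had 8.48 to 36.1. Hoxc12 stood at 0, 0.166, 31.3 and 31.9 TPM in WT replicates 1 to 4. In knockout cords it ran from 0.161 to 71.6 with a median of 23.6. The highest paralog group with a member at 1 TPM was 10 in knockout replicates 4 and 6, 11 in WT replicates 1 and 2, 12 in knockout replicate 7 and 13 in the other 8 cords.

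Hoxc8, a gene of the brachial and thoracic cord, ran the other way. It had 40.0, 43.3, 18.3 and 12.7 TPM in WT replicates 1 to 4. Knockout replicates 1 to 9 had 16.2, 7.99, 8.10, 37.4, 21.2, 40.6, 24.9, 9.64 and 36.4 TPM. The 6 cords highest in Hoxc8 were the 6 lowest in Hoxc12, which are WT replicates 1 and 2 and knockout replicates 4, 6, 7 and 9. Other genes of cluster C also had higher values in WT replicates 1 and 2 than in 3 and 4. Hoxc9 had 28.5, 28.6, 19.9 and 22.6 TPM in WT replicates 1 to 4. In the same order Hoxc6 had 27.8, 26.4, 21.7 and 15.3 TPM, and Hoxc4 had 26.7, 30.3, 21.4 and 21.3 TPM. Each of these was highest in knockout replicate 9. These are descriptions over 13 libraries, given without a test.

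Some members were steadier. Hoxb8, of the same paralog group as Hoxc8, had a coefficient of variation of 0.0359 over the 4 WT cords, against 0.537 for Hoxc8. Hoxb6 had 0.0267 and Hoxb3 had 0.0252. Over the 33 Hox genes at 1 TPM the median coefficient was 0.165, and over all 19388 such genes it was 0.107. The 5 Hox genes above the 95th percentile of all genes (0.650) were Hoxb13, Hoxc12, Hoxc13, Hoxc11 and Hoxd11. In knockout cords the medians were 0.247 and 0.191, and no Hox gene of 34 passed the 95th percentile (1.43). This limit was higher than that of WT cords, so the absence does not show steadier caudal Hox genes in knockout cords. Hoxb13, Hoxc12, Hoxc13, Hoxc11 and Hoxd11 had 1.27, 0.995, 1.02, 0.750 and 0.721 there, all above the WT limit of 0.650. In WT cords they had 1.24, 1.15, 1.13, 0.944 and 0.928. The part of the libraries that stand apart in the knockout limit was not tested.

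**Figure D4:**
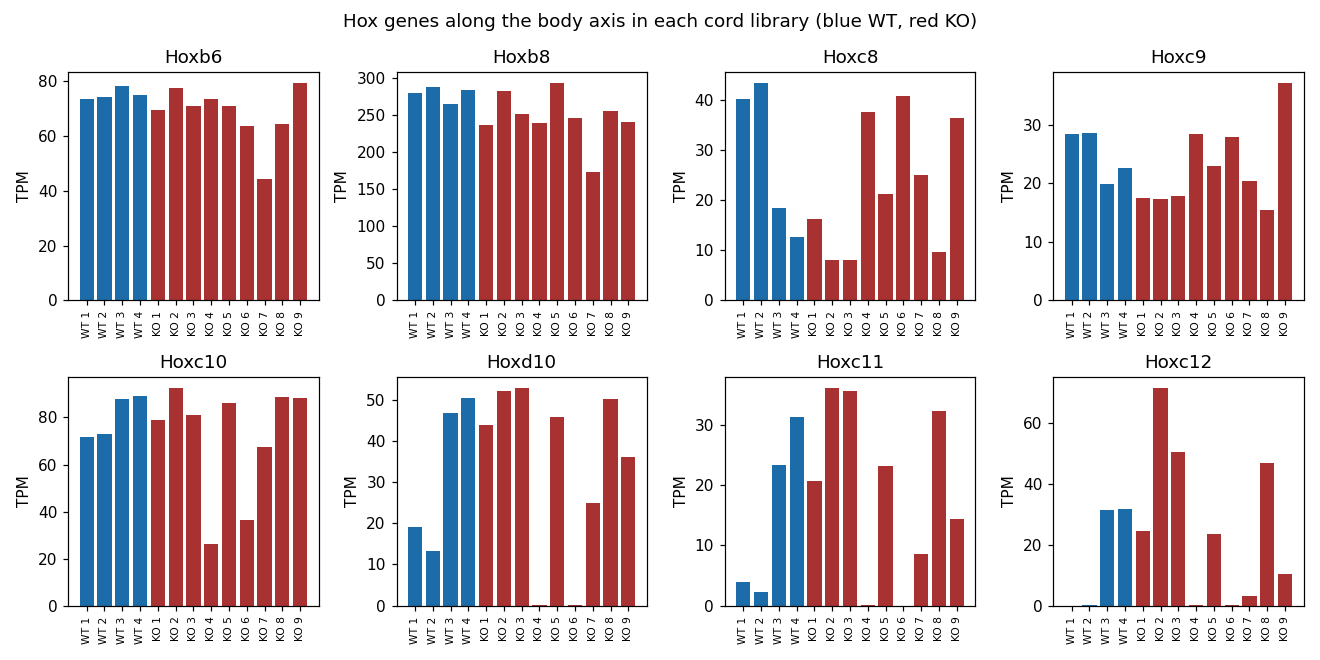
Level in TPM of 8 Hox genes, from paralog group 6 to 12, in each of the 13 cord libraries (blue WT, red knockout, 1 bar a library). Hoxb6 and Hoxb8 are lowest in knockout cord 7, Hoxc8 is high in WT cords 1 and 2 (40.0 and 43.3) and knockout cords 4 and 6, and Hoxd10, Hoxc11 and Hoxc12 are low or near 0 in those same libraries.

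In knockout replicates 4 and 6, lowest in caudal Hox genes, the summed markers of motor neurons, oligodendrocytes and astrocytes lay within the range of the other cords. Summed motor neuron markers (6 genes) were 354 TPM in knockout replicate 4 and 241 in replicate 6, in a range of 226 to 572 over the 13 cords. Summed oligodendrocyte markers (4 genes) were 4920 and 5752 TPM, in a range of 4282 to 6587. Astrocyte markers (4 genes) were 4437 and 3478.5 TPM in them, against 1595 to 2501 in WT cords and 1724 to 5902 in all knockout cords. Microglia markers (4 genes) were 339 and 239 TPM in them, against 118 to 153 in WT cords. Summed sensory ganglion markers (6 genes) were low in every cord but moved with the caudal Hox levels. Only Pou4f1, which spinal interneurons also make, had a mean of at least 1 TPM among them (7.29 to 13.5 over the cords). They were 8.44 and 10.3 TPM in knockout replicates 4 and 6, 9.87 and 9.25 in WT replicates 1 and 2, and 10.4 and 11.2 in knockout replicates 7 and 9. The other 7 cords had 11.4 to 14.8 TPM, so the 6 cords lowest in these markers were the 6 lowest in Hoxc12. The part of cell type content in these Hox levels was not tested. Hotair, a non-coding RNA of cluster C between Hoxc11 and Hoxc12, had 0.0992, 0.0427, 3.68 and 2.83 TPM in WT replicates 1 to 4. It was at 0 in knockout replicates 4 and 6.

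The comparison of knockout with WT cords asks whether Hox levels differ when miR-146a is absent. None of the 37 Hox genes tested passed an adjusted p of 0.05 in edgeR, beside 0.00% of all 22174 genes (0 called). At an unadjusted p below 0.05, 14.3% of all genes and 6 of 37 Hox genes stood, all 6 lower in knockout cords, where 6.80% of all genes were lower at that level. DESeq2 called 388 genes (1.75%) and limma 3, and neither called a Hox gene. Hoxb1 and Hoxd12 had too few counts to test. The fold change was negative for 28 of 37 Hox genes (75.7%), beside 46.9% of all genes, with a median of −0.18 on the log2 scale against 0.02 over all genes. No Hox gene had groups without overlap, and 1.30% of all tested genes did, so few that the absence is not a result about Hox genes.

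Of paralog groups 8 and 9, all 7 genes had a negative value, with a median of −0.26, beside the same 46.9% of all genes. The sign was not particular to them, since 11 of 12 genes of groups 4 to 7 were negative too. Of groups 1 to 9 together 23 of 26 were negative, and of groups 10 to 13 it was 5 of 11. Hoxb9 stood at 59.9, 72.0, 58.0 and 63.1 normalised CPM in WT replicates 1 to 4, and at 39.1 to 65.7 with a median of 49.5 in knockout cords. Of the 9 knockout libraries 8 lay below every WT library and 1 lay among them. On the log2 scale the difference was −0.32 (SE 0.11, adjusted p = 0.292 with edgeR).

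Hoxd9 stood at 31.8, 37.3, 28.7 and 30.4 normalised CPM in WT cords, and at 15.1 to 32.7 with a median of 23.9 in knockout cords. Here 7 of 9 lay below every WT library (log2 −0.39, SE 0.15, adjusted p = 0.294 with edgeR). Hoxa9, with a miR-146a seed match, had 45.7, 47.3, 42.4 and 43.5 in WT cords and 28.6 to 46.2 with a median of 37.1 in knockout cords. In it 8 of 9 lay below every WT library (log2 −0.26, SE 0.10, adjusted p = 0.294 with edgeR). Over the alternative tests, scalings, filters and left-out libraries, the adjusted p of these 3 genes ran from 0.116 to 0.569 and their direction held.

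The other 3 at an unadjusted p below 0.05, named after their values were seen, were Hoxd8 (log2 −0.18, SE 0.08), Hoxa5 (−0.23, SE 0.10) and Hoxb8 (−0.24, SE 0.11), with adjusted p of 0.334 to 0.336 in edgeR. Hoxa5 and Hoxa9 have a miR-146a seed match, and so does Hoxd10, whose fold change of −0.00 had an SE of 0.98.

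On the positive side the 3 with the smallest p were Hoxd3, Hoxa13 and Hoxb13. Hoxd3 had 0.808, 1.05, 1.70 and 1.58 normalised CPM in WT cords and 0.645 to 3.37 with a median of 1.48 in knockout cords (log2 0.20, SE 0.37, adjusted p = 0.834 with edgeR). Its highest value was in the library labelled knockout replicate 9, and without that library the fold change was −0.05. Hoxa13, of the tail end, had 0 to 0.974 in WT and 0 to 1.66 in knockout cords (log2 0.58, SE 1.15). Hoxb13 had 0 to 2.38 and 0 to 5.03 (log2 0.71, SE 1.51). The 11 tested genes of groups 10 to 13 had SEs of 0.28 to 1.51, against 0.08 to 0.54 for the 26 of groups 1 to 9. The difference between genotypes was thus measured less closely in the caudal genes than in the others.

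Among cord markers, the 4 neuron genes all had negative values in knockout cords, 2 of them at an unadjusted p below 0.05, among them Snap25 (log2 −0.25, SE 0.09, adjusted p = 0.294 with edgeR). Their summed level was 2202 to 2584 TPM in WT and 2039 to 2515 TPM in knockout cords. All 6 red blood cell markers had positive values and an unadjusted p below 0.05, with sums of 93.6 to 169.8 TPM in WT and 139.9 to 2922 TPM in knockout cords. The 4 oligodendrocyte markers had negative values with a median of −0.18, and their sums were 4353 to 6338 TPM in WT and 4282 to 6587 in knockout cords. The 4 microglia markers had positive values with a median of 0.70, 2 of them at an unadjusted p below 0.05, with sums of 118 to 153 TPM in WT and 114 to 443 in knockout cords. Positive too were the 4 astrocyte markers (median 0.20), the 6 mesenchyme markers (1.74) and the 5 tested skeletal muscle markers (6.51). Knockout replicate 7 alone held 8264.5 TPM of summed muscle and 881 TPM of summed mesenchyme markers. The medians of these sums were 10.4 and 31.0 TPM in knockout cords, against 10.2 and 27.0 TPM in WT cords. The part of these lists in the Hox values was not tested. Without both libraries that stand apart, edgeR called 8 genes and no Hox gene, and the Hox median was −0.14. With 1 library left out it called 1 gene without knockout replicate 2 and 2 genes each without knockout replicate 7 or 9.

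Of the lists of genes around Hox, none of 9 cofactors, 9 tested upstream genes, 17 Polycomb genes, 8 Trithorax genes, 12 tested cluster RNAs and neighbours, 5 tested rostral brain genes and 11 tested genes of motor neuron columns passed the test in cords. Of the upstream genes Egr2, a hindbrain regulator also made by Schwann cells, had a value of 1.54 on the log2 scale (SE 0.69, adjusted p = 0.336 with edgeR). Meis2 (−0.16, SE 0.06), Cbx6 of Polycomb (−0.17, SE 0.06) and Kmt2a of Trithorax (0.41, SE 0.15) had the smallest p of their lists. In the list of motor neuron columns it was Mnx1 (−0.64, SE 0.22), among the cluster RNAs Hotairm1 (−0.41, SE 0.26), and among the rostral genes En2 (−0.20, SE 0.16). Kmt2a was highest, with 63.1 TPM, in the library labelled knockout replicate 9.

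**Figure D5:**
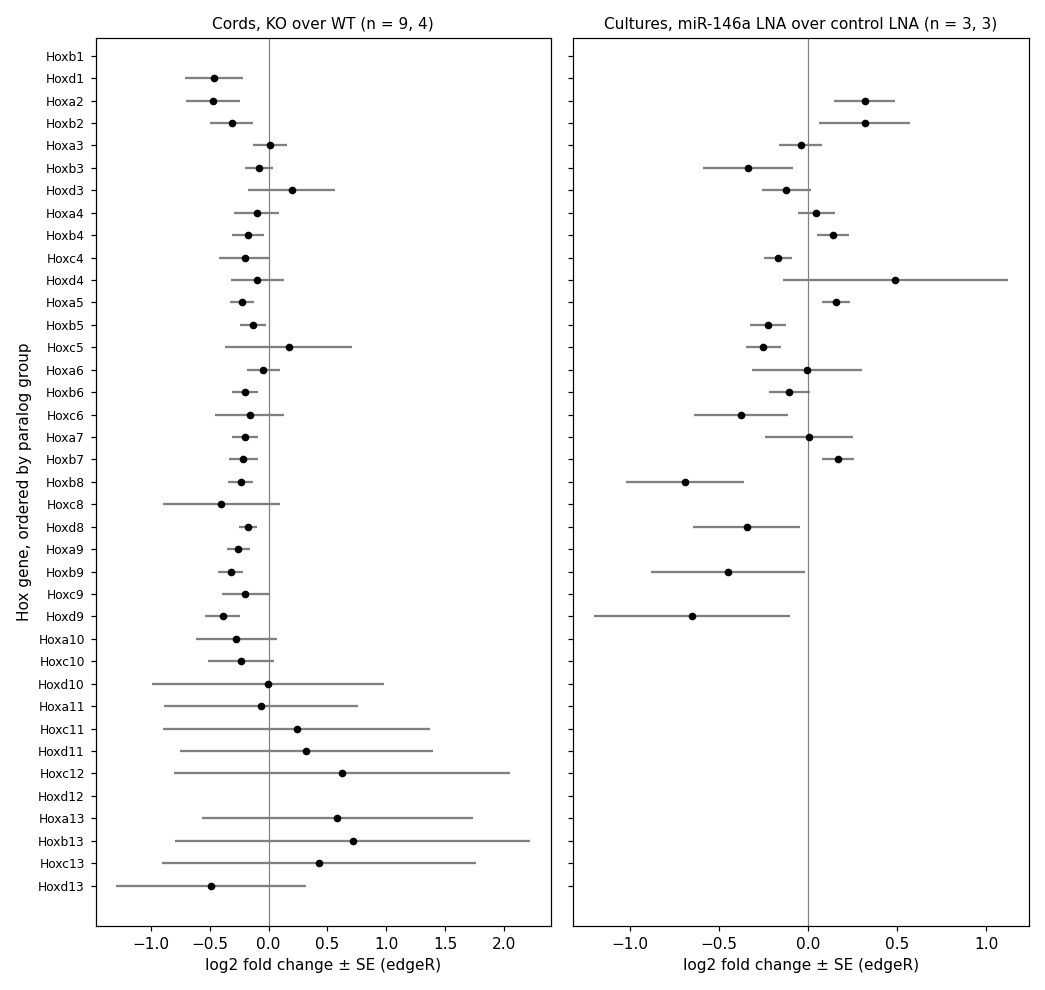
Log2 fold change with SE of tested Hox genes, ordered by paralog group, for knockout over WT cords (left, 36 genes, n = 9 and 4) and miR-146a LNA over control LNA cultures (right, 21 genes, n = 3 and 3). The left panel lies mostly just below 0 (27 of 36 negative) with wide bars in groups 10 to 13, and the right panel lies on both sides (8 positive and 13 negative).

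In motor neuron cultures the miR-146a LNA was compared with the control LNA. Here 1635 of 19099 genes (8.56%) passed the edgeR test, 458 higher and 1177 lower with the miR-146a LNA, and none of the 22 Hox genes tested did. At an unadjusted p below 0.05 stood 22.9% of all genes and 3 Hox genes, 1 higher and 2 lower. DESeq2 called 2156 genes (11.3%) and limma 2253, and neither called a Hox gene. The median of the tested Hox genes was −0.07 on the log2 scale, with 9 positive and 13 negative, against 0.01 over all genes, of which 48.5% were negative. Without control replicate 1 this median was 0.03. The number of genes called was 1059 without control replicate 1 and 778 without control replicate 2. In 6 of 22 Hox genes the groups did not overlap, a share near the 28.0% of all tested genes and thus not a result about Hox genes. Among the 6 were Hoxa2 and Hoxa5 with the LNA above and Hoxc4, Hoxc5 and Hoxc6 with the LNA below. All 3 tested genes of cluster C had negative values.

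Hoxa2, known for the second branchial arch, had 3.43, 3.22 and 3.55 normalised CPM with the control LNA and 4.33, 4.14 and 4.24 with the miR-146a LNA. Every miR-146a LNA library was above every control (log2 0.32, SE 0.17, adjusted p = 0.283 with edgeR). Hoxa5 had 33.7, 35.0 and 32.2 against 35.0, 36.6 and 40.9 (log2 0.16, SE 0.08, adjusted p = 0.234 with edgeR), so that its groups met at 35.0 without overlap.

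Hoxc5 had 28.3, 21.6 and 23.8 normalised CPM with the control LNA and 20.96, 21.6 and 19.4 with the miR-146a LNA (log2 −0.25, SE 0.10, adjusted p = 0.127 with edgeR). Hoxc4 had 43.4, 36.2 and 37.8 against 35.9, 34.7 and 34.0 (log2 −0.17, SE 0.08, adjusted p = 0.207 with edgeR). The groups of both genes did not overlap, but for Hoxc5 the lowest control and the highest miR-146a LNA library were both at 21.6. Hoxb5 had 84.5, 70.0 and 61.3 against 57.8, 67.2 and 59.5 (log2 −0.23, SE 0.10, adjusted p = 0.220 with edgeR), and its groups overlapped. It passed the test without a filter on low counts (adjusted p = 0.0228 with edgeR) and without control replicate 3 (0.044).

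All 4 tested genes of paralog groups 8 and 9 had negative values in the cultures, where their levels were low. Hoxb8, named after its values were seen, had 1.16, 1.56 and 0.998 normalised CPM with the control LNA and 1.02, 0.786 and 0.516 with the miR-146a LNA. Its groups overlapped (log2 −0.69, SE 0.33, adjusted p = 0.223 with edgeR). Hoxa9 and Hoxd10, which have a miR-146a seed match, had too few counts to test in cultures.

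Of the genes around Hox, 2 of 9 cofactors fell with the miR-146a LNA, beside 8.56% of all genes called. Meis1 fell from 329 ± 1.21 to 291 ± 7.15 normalised CPM (log2 −0.18, SE 0.05, adjusted p = 0.0206 with edgeR). Of 17 Polycomb genes 3 fell, among them Phc2 (log2 −0.58, SE 0.07) and Suz12 (−0.28, SE 0.08). Phc2 is a subunit of the repressive complex PRC1 and Suz12 one of PRC2.

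Of 7 tested upstream genes Cyp26b1, which degrades retinoic acid, fell (log2 −0.65, SE 0.13, adjusted p = 0.00513 with edgeR). No Trithorax gene of 8 passed, nor did any of 7 tested cluster RNAs and neighbours or of 6 tested rostral brain genes. Hoxb3os, antisense to Hoxb3, differed by 1.01 on the log2 scale (SE 0.49, adjusted p = 0.227 with edgeR). Of 12 genes of motor neuron columns 2 rose. They were Isl1 (log2 0.31, SE 0.06, adjusted p = 0.00177 with edgeR), a motor neuron fate factor, and Aldh1a2, which makes retinoic acid and marks limb-level motor neurons. Aldh1a2 had 0.615 to 1.04 TPM with the control LNA and 1.75 to 3.004 with the miR-146a LNA (log2 1.31, SE 0.35, adjusted p = 0.0246 with edgeR).

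Whether the knockout effect in cords and the LNA effect in cultures differ was tested as an interaction in 1 fit over all 19 libraries. Of 24152 genes 423 (1.75%) passed in edgeR, and none of 37 Hox genes did. Only 22 Hox genes had enough counts to test in cultures alone, so the LNA effect of the others was hardly measured. In groups 10 to 13 the SE of the difference ran from 0.58 to 8.09. That none of these passed is not a result about them. At an unadjusted p below 0.05 were 14.2% of all genes and 2 Hox genes. These were Hoxa2 (difference −0.77 on the log2 scale, SE 0.33, adjusted p = 0.286 with edgeR) and Hoxa5 (−0.36, SE 0.16, adjusted p = 0.302 with edgeR). The value of Hoxa2 was −0.47 in cords and 0.32 in cultures, and that of Hoxa5 was −0.23 and 0.16. Without both libraries that stand apart, 958 genes and again no Hox gene passed. Phc2 passed with a difference of 0.52 (SE 0.10, adjusted p = 0.00655 with edgeR).

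Several members cannot be read without doubt. Exons of 16 of 39 Hox genes share bases with other genes, in 6 of them over 25% of their exon length. These 6 are Hoxd3 (62.8%), Hoxb3 (52.9%), Hoxd4 (52.3%), Hoxa11 (35.0%), Hoxb2 (27.3%) and Hoxa3 (27.1%). Antisense RNAs such as Hoxb3os lie across some of them, and the strand setting of the counting is not given in the sources used here. The levels of these 6 genes are therefore uncertain.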

How the data were processed

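RNA-seq libraries of mouse spinal cord (13) and of motor neuron cultures (6) were used. Per the submitters' processing notes, the authors used STAR and featureCounts with GRCm38 and Ensembl release 101. The strand setting is not given in the sources used here. The authors deposited raw counts per gene, CPM, FPKM and TPM. CPM and FPKM as deposited were recomputed from the counts as a check, and TPM as deposited gave levels between genes. Total counts per library (28163289 to 65471742) set the counting precision.

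Counts were tested with edgeR 4.0.16 in R 4.3.3 (filterByExpr, TMM scaling, robust quasi-likelihood test, Benjamini-Hochberg adjustment over all tested genes, threshold 0.05), only the groups compared entering each fit, and all 19 libraries the interaction. The script was tested on simulated data. Alternatives were DESeq2 1.42.0, limma 3.58.1 (voom with quality weights), other scalings, no filter, left-out libraries and, in cultures, the replicate number as a block. A floor of 3 counts stood in for groups without counts.

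The members and lists were chosen with earlier results of these data known. Named by rule were the 3 Hox genes with the smallest p on each side in cords and in cultures, the 5 on each side between materials, the most abundant Hox gene of each paralog group, and up to 4 genes with the smallest p of each context list (cofactors, upstream genes, Polycomb, Trithorax, cluster RNAs, rostral brain, motor neuron columns). Others were chosen after their values were seen. A few genes that this rule names are not reported here and are left out of the figures, but stay in all counts and sums. Seed matches used GENCODE M21 (GRCm38). Replicates of a group were never identical.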

Additional observations from a re-analysis of the deposited data

Results flagged for a closer look

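In 8 of 67 combinations of a Hox gene and a cord group with a mean of at least 1 TPM, the highest or lowest library stood apart from the others by Dixon's criterion at 95%. Chance flags about 1 in 20, or 3.35 of 67. The library labelled knockout replicate 9 was highest for Hoxa3 (8.90 TPM, others 4.38 to 6.21), Hoxc4 (41.0, others 15.1 to 27.9), Hoxc5 (26.0, others 3.28 to 5.60) and Hoxd3 (2.86, others 0.475 to 1.34). It is the library that goes against its label at Pttg1. Knockout replicate 7, with the muscle transcripts, was lowest for Hoxb2 (1.42 TPM, others 2.78 to 3.14), Hoxb6 (44.3, others 63.6 to 79.5) and Hoxb8 (174.0, others 237 to 294). WT replicate 2 was lowest for Hoxd4 (5.93 TPM, others 8.91 to 9.16).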

How the results depend on the processing

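In cords 0 genes were called by edgeR, 388 by DESeq2, 3 by limma, 8 without both libraries that stand apart, and 0 to 2 with 1 library left out, and no Hox gene under any of these settings. The log2 fold change of Hoxd3 (0.20) ran from −0.051, without knockout replicate 9, to 0.36 with 1 library left out. In cultures 1635 genes were called, and 778 to 1985 with 1 library left out. Hox genes called there were 1 (Hoxb5) without a filter and 0 to 1 with 1 library left out. The interaction went from 423 genes to 958 without both libraries that stand apart. The cause of these shifts was not tested. With the replicate block, 1793 genes and 0 Hox genes were called in cultures. Same-numbered cultures had correlations of 0.0304, −0.109 and 0.00606 of their deviations from the group means. Cultures with different numbers had −0.139 to 0.141. With 3 libraries in each group these values cannot decide whether same-numbered cultures were paired, and the labels do not say. Precision in paralog groups 10 to 13 was limited by the spread between cords, and in cultures by few or no counts.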
